A study of Rattus norvegicus with 12 samples.

Results

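Metallothioneins are small, cysteine-rich proteins that bind zinc and copper. Their genes Mt1a, Mt2A and Mt3 were followed here across the uteri of ovariectomized rats on 2 diets, with and without 17β-estradiol (E2). These 3 genes were taken by name from the 16493 gene symbols of the deposited files, and all 3 had an FPKM above 0 in 12 of 12 libraries. FPKM is the number of sequenced fragments per kilobase of transcript, scaled to the mapped reads of the library, so levels of different genes can be compared per length. Mt1a and Mt2A were chosen by measured values, namely their fold changes in SPI-E2 against CAS, which were among the largest falls, and Mt3 was added as a relative. Values of SPI-E2 against CAS are therefore given as a description, with no test. Mt2A is also on the study's own list of genes lowered by E2 on casein, which was drawn from these libraries.

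Metallothioneins buffer zinc inside the cell and take up toxic metals such as cadmium. The genes of the first and second classes (Mt1a, Mt2A) are made in most tissues, and zinc switches them on through the transcription factor MTF-1, which binds short metal response elements in their promoters. Glucocorticoids and oxidative stress are known to raise them as well. Mt3 is best known from brain, where its protein was described as an inhibitor of neuronal growth, and it responds little to metals.

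Sprague-Dawley females of postnatal day 65 were used, all of them ovariectomized on day 50 and therefore without ovarian estrogen. CAS rats ate a purified diet with casein as its protein from day 30, SPI rats the same diet with soy protein isolate, and both were infused with vehicle alone. CAS-E2 and SPI-E2 rats ate the same 2 diets and received 5 μg/kg/d of E2 from an osmotic pump under the skin. Elsewhere the study states a period of 14 days on the diets, so how long they were fed is not settled. Groups held 3 libraries each, written as CAS 1 or SPI-E2 3, and each library was made from RNA of 2 uteri pooled in equal amounts. The p-values therefore measure the spread between pools and not between single rats.

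The mapped reads implied by the files were 6353210 to 9862180 per library, and 10279 genes that reached 1 FPKM in 3 or more libraries were tested together. The 4 uterine markers with values (Esr1, Pgr, Hoxa10 and Wnt5a, of 5 listed) were above 0 in every library. SPI-E2 1 stood apart from SPI-E2 2 and 3 in its response to E2, and results on SPI-E2 are given with and without it. By the study's read statistics, SPI-E2 1 also had a higher alignment rate and a smaller share of over-represented sequences than SPI-E2 2 and 3. In this it was like the SPI pools, and CAS 1 differed in the same way from CAS 2 and 3. CAS-E2 3 had the lowest alignment rate of all libraries. The part of library quality in the levels of SPI-E2 1 was not tested. The libraries of a group were combined for sequencing, so the group and its sequencing lane cannot be told apart.

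The genes lie side by side on the minus strand of chromosome 19 of the rn4 genome. Mt1a runs from 11261631 to 11262647, Mt2A from 11267811 to 11268585 and Mt3 from 11284554 to 11286402. Each has 1 annotated transcript of 3 exons, with 389, 383 and 376 bases, and a gap of 5163 bases separates Mt1a from Mt2A. The metallothioneins are close copies, and how 36-bp reads that matched several of them were assigned is not given in the sources used here, nor is the strand setting of the counting. Mt4, a relative known from stratified squamous epithelium, was listed at 0 in 12 libraries. Mtl5, a metallothionein-like gene known from testis, was listed at 0 in 10 libraries and at most at 0.0561 FPKM in the others.

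The promoters are shown because Mt1a and Mt2A moved together across the libraries while Mt3 did not follow them as closely. Each line holds the 250 bases before the annotated start of the gene, 5′ to 3′, from the RefSeq annotation of the GRCr8 build, where Mt1a is named Mt1. Capitals mark the core letters of the metal response element, TGCACNC or TGCGCNC on either strand. The windows are chr19:10832976-10833225 for Mt1a, chr19:10838709-10838958 for Mt2A and chr19:10856081-10856330 for Mt3, all on the minus strand.
Mt1a: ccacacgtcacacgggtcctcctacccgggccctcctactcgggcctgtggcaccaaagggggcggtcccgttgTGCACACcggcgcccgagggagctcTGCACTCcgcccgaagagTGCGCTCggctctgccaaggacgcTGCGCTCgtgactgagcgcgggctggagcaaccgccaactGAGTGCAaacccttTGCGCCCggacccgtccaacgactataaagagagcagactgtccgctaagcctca
Mt2A: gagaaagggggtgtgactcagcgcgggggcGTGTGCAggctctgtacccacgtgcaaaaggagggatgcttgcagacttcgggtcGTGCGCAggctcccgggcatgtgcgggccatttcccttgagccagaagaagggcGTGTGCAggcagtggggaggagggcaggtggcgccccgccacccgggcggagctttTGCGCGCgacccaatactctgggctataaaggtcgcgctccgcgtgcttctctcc
Mt3: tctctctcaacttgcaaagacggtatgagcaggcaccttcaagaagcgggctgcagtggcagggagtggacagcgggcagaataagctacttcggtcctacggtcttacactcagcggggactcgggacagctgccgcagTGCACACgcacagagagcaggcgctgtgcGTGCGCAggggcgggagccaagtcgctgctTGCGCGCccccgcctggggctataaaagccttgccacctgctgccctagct

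The core letters stood 6 times in the Mt1a window, 4 times in that of Mt2A and 3 times in that of Mt3, with no overlap between matches. At least 1 match was found in 20.57% of the 33469 rat promoters of the same length, and 6 or more in 0.027% of them. At least 4 matches were found in 0.266% and at least 3 in 1.171%. The letters TGACNNNGC, the core of the antioxidant response element, stood once in the Mt1a window and once in the Mt2A window, as at least once in 10.08% of all promoters, and did not overlap the metal response cores. They were not found in the Mt3 window. Neither the glucocorticoid half-site TGTTCT (in 17.52% of promoters) nor the full estrogen response palindrome (in 0.02%) was found in these windows on either strand. The TATA box letters TATAAA stood once in each of the 3 windows and in 12.93% of all promoters. A match is a description of letters and does not show that a factor binds there.

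In the uteri of rats fed casein without E2, Mt1a and Mt2A were among the most abundant transcripts. Mt1a was at 447, 370 and 401 FPKM in CAS 1 to 3, a mean of 406 ± 39.0 FPKM (SD, n = 3 pools). It ranked 37 to 44 from the top among the 10279 genes in these libraries. Mt2A was at 490, 331 and 383 FPKM in the same pools, a mean of 401 ± 80.8 FPKM (SD, n = 3), with ranks of 30 to 55. The 2 genes thus stood at about the same level per length in CAS, and their ranges overlapped. Mt3 was far lower, at 53.4, 33.2 and 32.6 FPKM, a mean of 39.7 ± 11.8 FPKM (SD, n = 3).

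**Figure D1:**
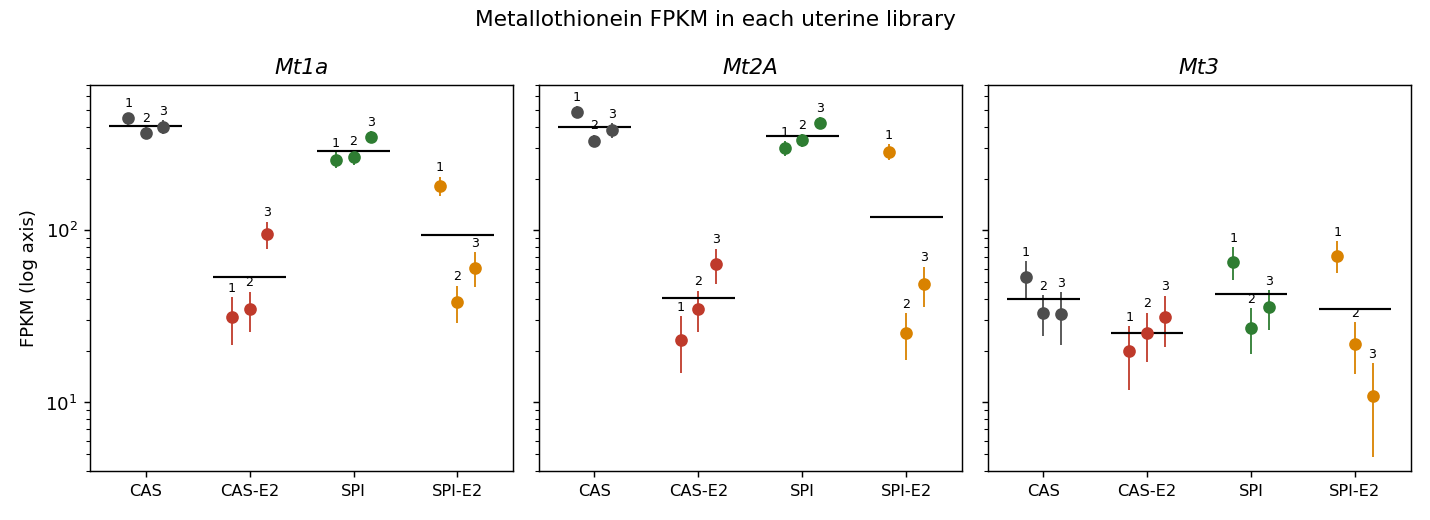
FPKM of Mt1a, Mt2A and Mt3 on a log axis, by group. Points stand for libraries and carry the replicate number, vertical lines are the 95% intervals that Cufflinks gave, and horizontal bars are group means of 3 libraries. Mt1a and Mt2A lie between 331 and 490 FPKM in CAS and between 23.2 and 95.1 FPKM in CAS-E2, and SPI-E2 1 lies above SPI-E2 2 and 3 for each gene.

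With E2 on the casein diet both of the abundant metallothioneins fell steeply. Mt1a was at 31.3, 34.9 and 95.1 FPKM in CAS-E2 1 to 3, a mean of 53.8 ± 35.8 FPKM (SD, n = 3 pools) and 13.2% of the CAS mean. Mt2A was at 23.2, 35.1 and 63.6 FPKM, a mean of 40.6 ± 20.7 FPKM (SD, n = 3) and 10.1% of the CAS mean. CAS-E2 3 was the highest of its group for both genes. No CAS-E2 pool reached any CAS pool, as in this direction for 31.2% of all genes tested. The log2 fold change of Mt1a was -3.08 (limma, SE 0.51, adjusted p = 0.0011) and that of Mt2A was -3.37 (limma, SE 0.67, adjusted p = 0.0029). In these bulk samples, fewer cells that make a transcript and less of it per cell cannot be told apart.

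Mt3 was at 19.8, 25.2 and 31.4 FPKM in CAS-E2, a mean of 25.4 ± 5.79 FPKM (SD, n = 3 pools). Its highest CAS-E2 pool lay just under the lowest CAS pool, so the groups did not overlap, as was true in this direction of 31.2% of all genes tested. The intervals that Cufflinks gave for these 2 pools, 20.9 to 41.8 FPKM and 21.5 to 43.7 FPKM, cover nearly the same range. The log2 fold change of Mt3 was -0.61 (limma, SE 0.53, adjusted p = 0.38), with a 95% interval of -1.77 to 0.55. Of the 3 metallothioneins 2 were thus called lower in CAS-E2 against CAS, where 6.37% of all genes were. A call needed an adjusted p under 0.05 and a change of at least 2-fold.

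The comparison that chose Mt1a and Mt2A used CAS and SPI-E2, so CAS-E2 against CAS shares its control pools, and its tests and count of calls are not independent of the choice. CAS-E2 against SPI shares no library with it, although diet and E2 differ at once. There Mt1a had a log2 fold change of -2.59 (limma, SE 0.51, adjusted p = 0.0034) and Mt2A one of -3.19 (limma, SE 0.67, adjusted p = 0.0048). Mt3 had one of -0.66 (limma, SE 0.53, adjusted p = 0.36). These fold changes use none of the pools that made the choice. The fit took its spread from all 12 libraries, however, so the SE and p-values still draw on those pools. The calls of Mt1a and Mt2A were kept with only CAS-E2 and SPI fitted. Of all genes, 3.41% were called lower in this comparison. Every CAS-E2 pool was below every SPI pool for Mt1a and Mt2A, as for 19.4% of all genes, while the pools of Mt3 overlapped.

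On soy protein isolate without E2 none of the metallothioneins was called different from its casein level. Mt1a was at 258, 265 and 350 FPKM in SPI 1 to 3, a mean of 291 ± 50.9 FPKM (SD, n = 3 pools), or 71.7% of the CAS mean. All SPI pools of Mt1a lay below all CAS pools, as in 30.8% of all genes in this comparison, whose median log2 fold change was -0.16 and -0.01 after median-ratio scaling. Mt2A was at 299, 334 and 422 FPKM, a mean of 352 ± 63.4 FPKM (SD, n = 3), and its SPI and CAS pools overlapped. Mt3 was at 65.9, 27.2 and 35.7 FPKM, a mean of 42.9 ± 20.3 FPKM (SD, n = 3), with SPI 1 above all CAS pools.

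The test called 0 of 3 metallothioneins in SPI against CAS in either direction, where 0.0195% of all genes were called lower and 0.0% higher. None had an unadjusted p under 0.05 either. For Mt1a the log2 fold change was -0.49 (limma, SE 0.51, adjusted p = 0.68), with a 95% interval of -1.59 to 0.61. The interval was -1.65 to 1.28 for Mt2A and -1.11 to 1.21 for Mt3, so a 2-fold change in either direction was not excluded for Mt2A and Mt3, nor a 2-fold fall for Mt1a.

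SPI 1 also held a high level of liver transcripts: 5 hepatocyte markers with values, of 6 listed, summed to 1433 FPKM there and to 11.7 and 36.1 FPKM in SPI 2 and 3. Among the SPI pools, Mt1a and Mt2A were lowest in SPI 1 and Mt3 was highest there, and the part of liver transcripts in these levels was not tested. None of these markers, Alb and Ttr among them, was at 0 in any library. The sums of the list were 26.7 to 255 FPKM in CAS, 26.1 to 107 FPKM in CAS-E2 and 11.8 to 128 FPKM in SPI-E2.

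With E2 on the soy diet, Mt1a and Mt2A were low in SPI-E2 2 and 3 and far higher in SPI-E2 1. SPI-E2 1 held 182 FPKM of Mt1a, while SPI-E2 2 held 38.3 FPKM and SPI-E2 3 held 60.7 FPKM. It held 287 FPKM of Mt2A, while the other pools held 25.3 and 48.7 FPKM, an 11.3-fold range within a group. Mt3 was at 71.4, 21.9 and 10.9 FPKM in the same order, a mean of 34.7 ± 32.2 FPKM (SD, n = 3 pools). SPI-E2 1 held the highest Mt3 value of all 12 libraries and SPI-E2 3 the lowest.

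SPI-E2 1 kept 62.6% of the SPI mean of Mt1a and 81.4% of that of Mt2A. SPI-E2 2 kept 13.2% and 7.19% of these means, and SPI-E2 3 kept 20.9% and 13.8%. For Mt2A the interval that Cufflinks gave in SPI-E2 1, 257 to 316 FPKM, overlapped that of SPI 1, 270 to 329 FPKM. Without SPI-E2 1 the mean of the remaining pair of pools was 49.5 FPKM for Mt1a and 37.0 FPKM for Mt2A, close to the CAS-E2 means. The mean of 3 pools was 93.7 ± 77.4 FPKM for Mt1a and 120 ± 145 FPKM for Mt2A (SD, n = 3), so that the SD of Mt2A exceeded its mean.

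Other E2-responsive genes were raised in SPI-E2 1, but less than in the other pools. A list of 7 such genes, chosen with earlier results known (Mmp7, S100g and Lpo among them), summed to 1322 FPKM in SPI-E2 1 and to 5838 and 5727 FPKM in SPI-E2 2 and 3. It summed to 12.3 to 63.4 FPKM in SPI and 3024 to 5934 FPKM in CAS-E2. The 5 epithelial markers, such as Epcam and Krt8, summed to 467 FPKM in SPI-E2 1 and to 1639 and 1653 FPKM in SPI-E2 2 and 3. SPI pools had epithelial sums of 115 to 144 FPKM. SPI-E2 1 therefore lay between SPI and the other SPI-E2 pools in these lists, as it did for Mt1a and Mt2A. Its Mt3 level lay above all SPI pools instead. The part that its weaker response played in its metallothionein levels was not tested.

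SPI-E2 against SPI uses the same SPI-E2 pools as the comparison that chose Mt1a and Mt2A, so its tests and its count of calls are partly set by that choice. Against SPI, Mt1a had a log2 fold change of -1.92 in SPI-E2 (limma, SE 0.51, adjusted p = 0.017). Mt2A had one of -2.27 (limma, SE 0.67, adjusted p = 0.027). Of the 3 metallothioneins 2 were called lower, where 1.86% of all genes were, and for the same reason nothing is read from this share. The SPI-E2 and SPI pools of these 2 genes did not overlap, as was so in this direction of 11.2% of all genes. Mt3 had a log2 fold change of -0.60 (limma, SE 0.53, adjusted p = 0.41).

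These calls depended on single pools. The call of Mt1a ended without SPI 3, without SPI-E2 2 or without SPI-E2 3, and that of Mt2A without any of SPI 1, SPI 2, SPI 3, SPI-E2 2 or SPI-E2 3, with adjusted p of 0.05 to 0.12 from limma. Without SPI-E2 1 the fall was larger, at -2.55 for Mt1a (adjusted p = 0.00052 from limma) and -3.27 for Mt2A (adjusted p = 7.5e-05 from limma). Mt3 was then called lower as well, at -1.32 (adjusted p = 0.019 from limma), with a group of 2 pools against 3. In that fit 456 of the 10279 genes were called lower, where 191 had been with SPI-E2 1.

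SPI-E2 against CAS is a description only. All SPI-E2 pools were below all CAS pools for Mt1a and Mt2A, as were 24.3% of all genes, while those of Mt3 overlapped. The log2 fold change was -2.41 (SE 0.51) for Mt1a, -2.46 (SE 0.67) for Mt2A and -0.56 (SE 0.53) for Mt3. Without SPI-E2 1 these values were -3.04, -3.46 and -1.27.

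**Figure D2:**
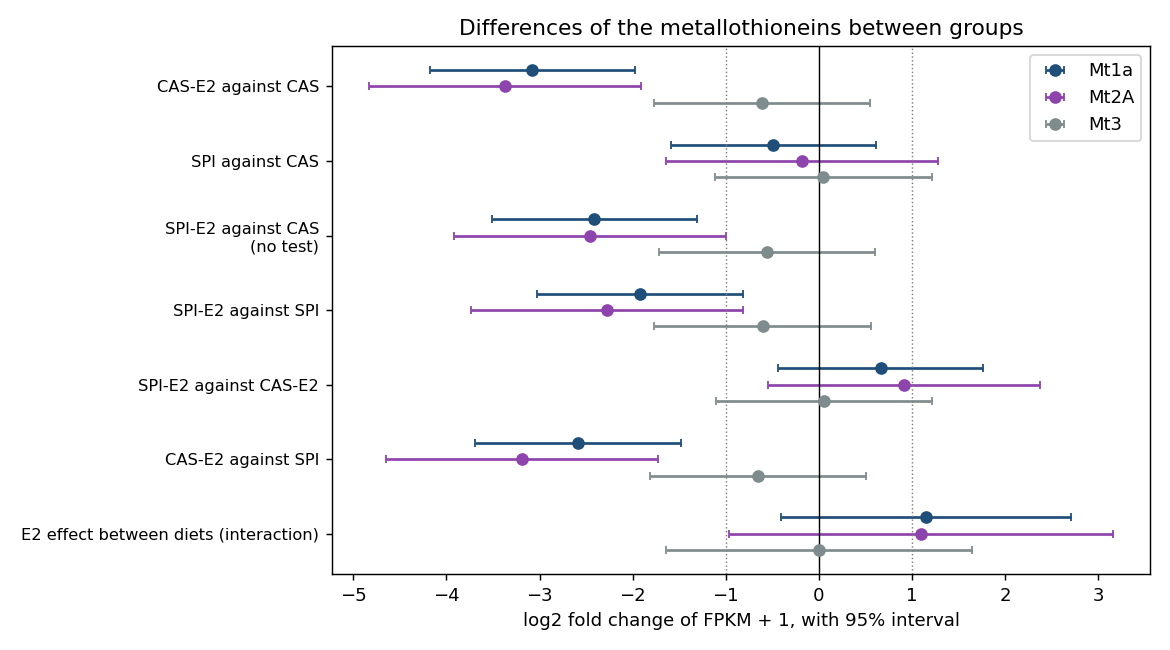
Log2 fold changes of Mt1a, Mt2A and Mt3 on the log2(FPKM + 1) scale, with 95% intervals from limma, for each comparison. The intervals of Mt1a and Mt2A lie below 0 in CAS-E2 against CAS, SPI-E2 against SPI and CAS-E2 against SPI, and those of Mt3 include 0 in every comparison. SPI-E2 against CAS chose the genes and has no test.

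The diets were also compared under E2. Mt1a was higher by a log2 fold change of 0.66 in SPI-E2 than in CAS-E2 (limma, SE 0.51, 95% interval -0.44 to 1.77, adjusted p = 0.94). For Mt2A the value was 0.91 (limma, SE 0.67, 95% interval -0.55 to 2.37, adjusted p = 0.94) and for Mt3 it was 0.05 (SE 0.53). The pools of the groups overlapped for all 3 genes, and 0 of 3 were called, where 0.00973% of all genes were called higher and 0.0% lower. Without SPI-E2 1 the values of Mt1a, Mt2A and Mt3 were 0.03, -0.09 and -0.66.

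The E2 effect itself was set against the diets in an interaction term. It was 1.15 for Mt1a (limma, SE 0.71, 95% interval -0.41 to 2.71, adjusted p = 0.46), that is, a smaller fall on soy. It was 1.10 for Mt2A (limma, SE 0.95, 95% interval -0.97 to 3.16, adjusted p = 0.59). A difference of the E2 effect between diets was not shown, and intervals of this width do not show that the effects were alike. Without SPI-E2 1 the terms were 0.52 and 0.10. The term of Mt3 was 0.00 (SE 0.75). Of all genes 0.0% were called in either direction, with 1362 higher and 168 lower at an unadjusted p under 0.05. The median term of all genes was 0.21, and it was 0.01 after median-ratio scaling.

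The order of the group means was CAS, SPI, SPI-E2 and CAS-E2 for Mt1a and for Mt2A. Of neighbours in that order, SPI and SPI-E2 differed past the test, while CAS and SPI did not, nor did SPI-E2 and CAS-E2. As given above, the calls of SPI-E2 against SPI depended on single pools. For Mt3 the order was SPI, CAS, SPI-E2 and CAS-E2, with no neighbours differing past the test. The place of SPI-E2 above CAS-E2 came from SPI-E2 1 for each gene. Without it the SPI-E2 means of Mt1a, Mt2A and Mt3 were 49.5, 37.0 and 16.4 FPKM. These lay below the CAS-E2 means of 53.8, 40.6 and 25.4 FPKM. Replicate 1 was the highest pool of Mt3 in CAS, SPI and SPI-E2, and the lowest in CAS-E2.

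The ratio of Mt1a to Mt2A stayed within 0.635 to 1.51 while both genes fell. The genes are close copies, and the part of reads that matched both in this ratio and in their correlation below was not tested. For CAS 1 to 3 this ratio of FPKM was 0.914, 1.12 and 1.05. For CAS-E2 1 to 3 it was 1.35, 0.993 and 1.496. All SPI pools, with 0.862, 0.794 and 0.828, lay below all CAS pools, and SPI-E2 1 to 3 had 0.635, 1.51 and 1.25. SPI-E2 1 had the lowest ratio of the 12 libraries and SPI-E2 2 the highest. In SPI against CAS the exact two-sided permutation test of the log2 ratio gave p = 0.1, which is the smallest that 3 pools against 3 allow, and p = 0.3 when adjusted over 12 such tests.

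The ratio of Mt1a to Mt3 changed more. It was 8.39, 11.1 and 12.3 in CAS and 1.58, 1.39 and 3.03 in CAS-E2, so that the abundant gene came close to the scarce one with E2. In SPI it was 3.92, 9.76 and 9.80, and in SPI-E2 it was 2.55, 1.75 and 5.59. The CAS and CAS-E2 pools did not overlap, and the exact permutation p was again 0.1, the smallest possible. The SPI and SPI-E2 pools overlapped, through SPI 1 and SPI-E2 3 (exact permutation p = 0.2). The ratio of Mt2A to Mt3 was 9.18 to 11.7 in CAS, 1.17 to 2.03 in CAS-E2, 4.54 to 12.3 in SPI and 1.16 to 4.48 in SPI-E2. For it neither the CAS and CAS-E2 pools nor the SPI and SPI-E2 pools overlapped (exact permutation p = 0.1 in both, adjusted p = 0.3 over the 12 tests). Mt1a and Mt2A, but not Mt3, were chosen for their falls in SPI-E2 against CAS. CAS-E2 against CAS and SPI-E2 against SPI share pools with that comparison, so falls of these ratios are partly set by the choice. No p under 0.1 was possible, and nothing is read from these tests.

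**Figure D3:**
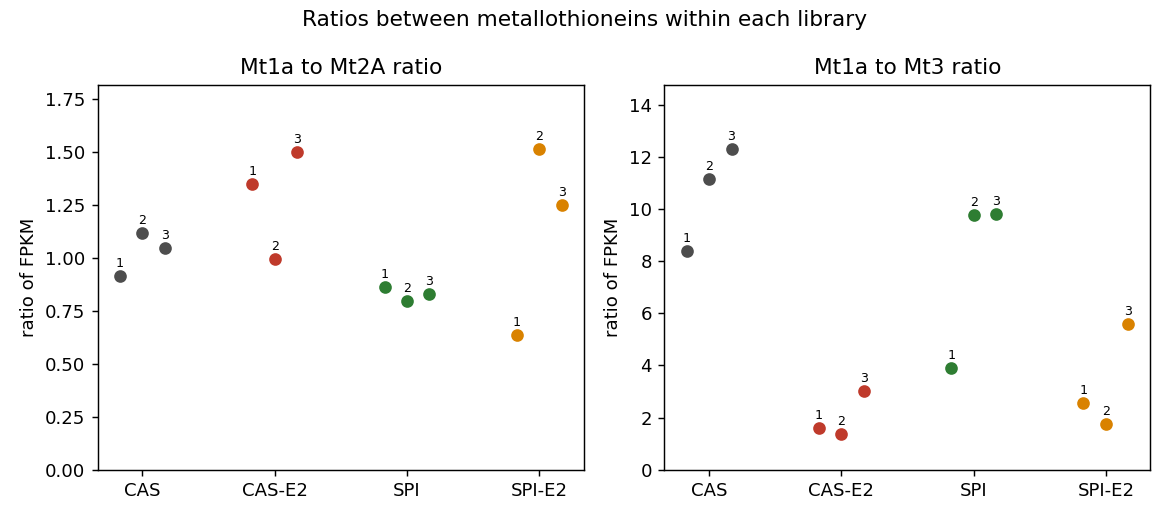
Ratio of the FPKM of Mt1a to that of Mt2A (left) and to that of Mt3 (right) within each library, by group, with the replicate number beside each point. The Mt1a to Mt2A ratio stays between 0.635 and 1.51 in the 12 libraries, while the Mt1a to Mt3 ratio is 8.39 to 12.3 in CAS and 1.39 to 3.03 in CAS-E2.

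The genes whose levels ran most like those of the metallothioneins were sought by Pearson's correlation of log2(FPKM + 1) over the 12 libraries, which share their groups, so that a correlation mostly reflects E2. For Mt1a the most alike were Mt2A (0.984), the carbonic anhydrase Ca2 (0.980), the glutathione transferase Gstm7 (0.978), the septin Sept4 (0.978) and Gulo (0.974), the last enzyme of vitamin C synthesis in rats. For Mt2A they were Ca2 (0.994), the hedgehog transcription factor Gli1 (0.986), Mt1a (0.984), Gstm7 (0.983) and Arid5b (0.981), a DNA-binding protein. Ca2, picked by this correlation, was at 7.96, 0.984 and 1.97 FPKM in SPI-E2 1 to 3, 11.9 ± 2.85 FPKM in CAS and 1.39 ± 0.565 FPKM in CAS-E2 (SD, n = 3 each), and these values restate the likeness.

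The most opposite genes were led for both by Sla, a Src-like adaptor of blood cells (-0.983 and -0.977). They included the eosinophil chemokine Ccl11 and Creg1, a secreted glycoprotein, for Mt1a, and Mgat5, which branches N-glycans, and Clmn for Mt2A. Mt3 ran with other genes. The most alike were Whsc2 (0.920), the selenoprotein Sepw1 (0.869), Ppat (0.855), an enzyme of purine synthesis, Zc3hc1 (0.833) and RGD1304595 (0.832). Opposite to Mt3 were Riok2 (-0.858), Pigp (-0.845) and Stam2 (-0.825). Its own correlation was 0.625 with Mt1a and 0.681 with Mt2A.

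Other genes of zinc handling moved in both directions under E2. MTF-1, the zinc sensor that drives metallothionein genes, showed no called change: Mtf1 was at 2.18 ± 0.309 FPKM in CAS and 2.08 ± 0.306 FPKM in CAS-E2 (SD, n = 3 each; log2 fold change -0.05, adjusted p = 0.81 from limma). Slc30a1, the zinc exporter of the plasma membrane and itself known as a target of MTF-1, fell from 8.15 ± 0.597 to 3.31 ± 0.690 FPKM. Its log2 fold change was -1.10 (limma, SE 0.20, adjusted p = 0.0021). Slc30a2, which loads zinc into vesicles, fell from 1.89 ± 0.321 to 0.358 ± 0.240 FPKM (log2 fold change -1.10, SE 0.17). The part of MTF-1 in these levels was not tested.

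Of the 8 tested genes of the SLC30 list, exporters and vesicle transporters, 2 fell and 0 rose in CAS-E2 against CAS, where 6.37% of all genes were called lower and 7.99% higher. The median log2 fold change of these 8 was -0.44, against -0.07 for all genes. In SPI-E2 against SPI, 0 fell and 1 rose, Slc30a7 of the Golgi (log2 fold change 1.28, SE 0.28). In that comparison 1.86% of all genes were called lower and 8.39% higher. The SPI pools held 5.38 ± 1.33 FPKM of Slc30a1 and the SPI-E2 pools 4.20 ± 1.12 FPKM (SD, n = 3 each; log2 fold change -0.30, adjusted p = 0.3 from limma). The difference of the E2 effect on Slc30a1 between diets did not pass the test (0.80, SE 0.29, adjusted p = 0.25 from limma).

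Among 12 tested zinc importers of the SLC39 list, 2 rose and 1 fell in CAS-E2 against CAS. Of all genes, 7.99% were called higher and 6.37% lower there. Slc39a2 rose from 0.0398 ± 0.0689 to 2.57 ± 0.851 FPKM (log2 fold change 1.75, SE 0.27). Slc39a4, the intestinal zinc importer, rose from 1.75 ± 0.210 to 4.93 ± 1.82 FPKM (log2 fold change 1.07, SE 0.22). Slc39a8, which carries zinc and manganese, fell from 5.70 ± 1.54 to 2.20 ± 0.762 FPKM (log2 fold change -1.07, SE 0.25), but its change was under 2-fold with median-ratio scaling. In SPI-E2 against SPI, 3 rose and 1 fell, where 8.39% of all genes were called higher and 1.86% lower. Slc39a2, Slc39a4 and Slc39a8 were called there in the same directions, with log2 fold changes of 1.39, 1.12 and -1.26. Slc39a10 had no row and was not analysed here.

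**Figure D4:**
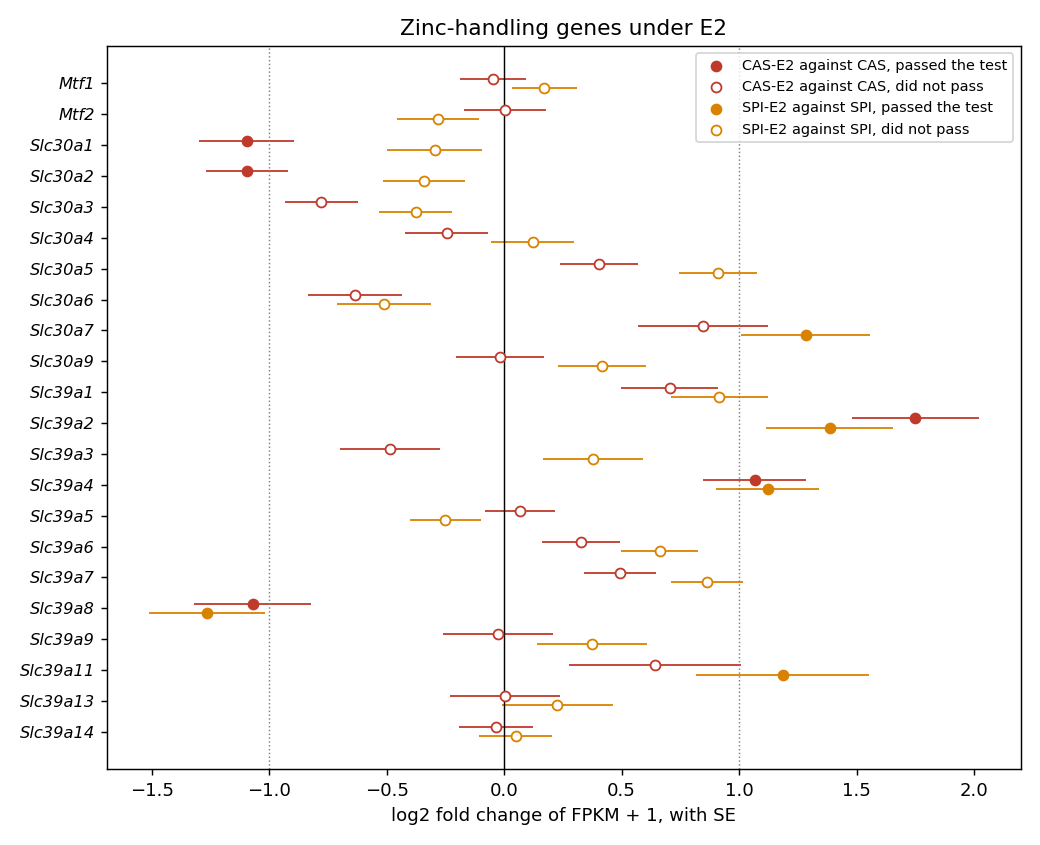
Log2 fold changes with SE of MTF and zinc transporter genes on the log2(FPKM + 1) scale, for CAS-E2 against CAS (red) and SPI-E2 against SPI (orange). Filled points passed the adjusted p and 2-fold cutoffs, whose fold is marked by dotted lines, and open points did not. Slc30a1 and Slc30a2 lie at -1.10 in CAS-E2 against CAS, and Slc39a2 and Slc39a4 lie above 1 in both comparisons.

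The oxidative stress response is among the signals known to raise metallothioneins. Of 17 tested genes of the Nrf2 oxidative stress response, 7 rose and 0 fell in CAS-E2 against CAS, with a median log2 fold change of 0.73. Of all genes, 7.99% were called higher and 6.37% lower, and the median was -0.07. Sod2, the superoxide dismutase of mitochondria, rose by 1.64 (SE 0.25), Txnrd1, a thioredoxin reductase, by 1.71 (SE 0.26), and the peroxiredoxin Prdx1 by 1.77 (SE 0.30). In SPI-E2 against SPI, 10 rose and 1 fell, with a median of 1.25, where 8.39% of all genes were called higher and 1.86% lower and the median was 0.11. The genes with the smallest adjusted p there were Txnrd1 at 2.09 (SE 0.26), Nqo1, a quinone reductase, at 1.82 (SE 0.23) and Gclm, a subunit of the enzyme that starts glutathione synthesis, at 1.55 (SE 0.22). Any link between these genes and the metallothionein levels was not tested.

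Of 14 tested genes of the glucocorticoid list, 3 rose and 2 fell in CAS-E2 against CAS, where 7.99% of all genes were called higher and 6.37% lower. The median log2 fold change of the list was -0.22, against -0.07 for all genes. With median-ratio scaling 1 fall was left, since Tsc22d3, a glucocorticoid-induced leucine zipper gene, went from -1.03 to -0.94. The kinase Sgk1 rose by 1.84 (SE 0.14), Hsd11b2 by 3.07 (SE 0.55) and Hsd11b1 by 1.10 (SE 0.22). The cell cycle inhibitor Cdkn1c fell by 1.75 on the log2 scale (SE 0.32). The receptor Nr3c1 was at 8.001 ± 1.64 FPKM in CAS and 3.67 ± 1.07 FPKM in CAS-E2 (SD, n = 3 each). Its log2 fold change of -0.96 (limma, SE 0.25, adjusted p = 0.011) was just under the 2-fold cutoff. In SPI-E2 against SPI, 2 rose and 1 fell, where 8.39% of all genes were called higher and 1.86% lower. The list median was -0.02 and the all-gene median was 0.11. Nr3c1 had a log2 fold change of -0.76 (SE 0.25) there, which became -1.03 and a call without SPI-E2 1. The part of glucocorticoids in the metallothionein levels was not tested.

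Of 11 tested copper genes 1 rose in CAS-E2 against CAS, the copper importer Slc31a1 (1.11, SE 0.27), and 0 fell. Of 13 tested iron genes 3 rose and 0 fell, the siderophore-binding protein gene Lcn2 (5.87, SE 0.62), the iron importer Slc11a2 (1.02, SE 0.17) and the heme oxygenase Hmox1 (1.31, SE 0.31), which the Nrf2 list also holds. Over all 76 tested genes of these lists, 15 rose and 5 fell in CAS-E2 against CAS (19.7% and 6.58%, against 7.99% and 6.37% of all genes). In SPI-E2 against SPI 17 rose and 3 fell (22.4% and 3.95%, against 8.39% and 1.86%), and in CAS-E2 against SPI 18 rose and 2 fell (23.7% and 2.63%, against 8.88% and 3.41%). Median-ratio scaling, added for these counts after seeing the data, gave 16 and 3, 17 and 4, and 16 and 4 in the same order. In SPI against CAS, in SPI-E2 against CAS-E2 and in the interaction 0 of 76 were called. Counts without SPI-E2 1 were also added after seeing the data. In SPI-E2 against SPI they were 21 rises and 6 falls over all lists, with 2 rises among the SLC30 genes, 4 rises and 1 fall among the SLC39 genes, 1 of each among the copper genes, where 0 had been called, 3 rises among the iron genes, where 2 had been, 10 rises and 2 falls in the Nrf2 list and 2 of each in the glucocorticoid list. In the interaction the Nrf2 gene Srxn1 (1.19) and the glucocorticoid target Ddit4 (1.83) were then called. The all-gene background also changed without SPI-E2 1. Of the 10279 genes, 456 were then called lower in SPI-E2 against SPI, where 191 had been. In the interaction 84 were called higher and 7 lower, where 0 had been. All-gene rises in SPI-E2 against SPI were 607 to 1284 over the fits that each left out a library.

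Markers of cell types moved with E2 beside the metallothioneins. The 5 epithelial markers summed to 171 to 198 FPKM in CAS and 794 to 1373 FPKM in CAS-E2. The 5 leukocyte markers summed to 35.0 to 41.7 FPKM and 100 to 119 FPKM in these groups, and the 3 endothelial markers with values, of 4 listed, to 52.5 to 62.5 FPKM and 27.3 to 38.5 FPKM. The 5 stromal markers summed to 500 to 640 FPKM in CAS and 244 to 545 FPKM in CAS-E2, and 4 smooth muscle markers, of 5 listed, to 1222 to 1375 FPKM and 1027 to 2330 FPKM. No marker of these lists was at 0 in any of these 6 libraries other than 1 leukocyte marker in CAS 3. The part of these shifts in the levels of Mt1a and Mt2A was not tested.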

How the data were processed

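Poly-A RNA from 12 pools of uteri was sequenced by the authors as 36-bp single reads. Per the submitters' processing notes, CASAVA 1.7, TopHat2 2.0.9, Bowtie2 2.1.0 and Cufflinks 2.1.1 were used with the rn4 genome. The files were deposited by the authors as transcript lines with FPKM, its 95% interval and a coverage, and hold no counts. Mapped reads were worked out from coverage and FPKM. Intervals and depths cover counting error only.

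FPKM were summed per gene symbol and taken as log2(FPKM + 1), a scale that understates fold changes of low genes. Genes that reached 1 FPKM in 3 or more libraries entered 1 limma fit (limma 3.58.1, R 4.3.3) of the 4 group means with a variance trend. Adjustment was by Benjamini and Hochberg's method over 10279 genes. Cuffdiff, the study's own tool, needs reads and was not repeated. The fit was tested on simulated data. Python 3.11.15 with pandas 2.3.3, scipy 1.17.1 and matplotlib 3.10.9 served for the rest.

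The members, lists and comparisons were chosen with earlier results of these data known. Named are the 3 members and other metallothionein symbols, the 5 genes most correlated with each member and the 3 most opposite, the called genes with the 3 smallest adjusted p per list and comparison, and Mtf1, Slc30a1, Slc39a10 and Nr3c1. Any other gene was named after its values were seen. Promoters came from RefSeq, with 3 of 3 members matched by transcript. Replicate numbers are those of the sample titles, with nothing to say what they share. Same-numbered CAS-E2 and SPI-E2 libraries deviated together (correlations 0.12, 0.27 and 0.34, every one above 0.1), while other pairs of groups had correlations of -0.26 to 0.15. These ranges overlap, so a pairing of the libraries is not shown. Alternatives were other pseudocounts, filters, scaling and weights, a replicate block, fits of 2 groups and leaving out each library.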

Additional observations from a re-analysis of the deposited data

How the results depend on the processing

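The falls of Mt1a and Mt2A in CAS-E2 against CAS and against SPI kept their calls under all 20 alternatives run, with adjusted p from limma of 4.7e-07 to 0.019. The calls in SPI-E2 against SPI were lost with only the 2 groups fitted, at -1.92 for Mt1a (adjusted p = 0.052 from limma) and -2.27 for Mt2A (adjusted p = 0.089 from limma). The spread was then estimated from these 2 groups alone. In SPI-E2 the SD was 77.4 FPKM for Mt1a and 145 FPKM for Mt2A. The calls in CAS-E2 against CAS and against SPI were kept in fits of 2 groups. With 3 pools a group, the intervals of Mt3 under E2 did not exclude a 2-fold fall, and those of SPI against CAS did not exclude one for any member. Causes of these shifts were not tested.

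All-gene counts moved most. With a pseudocount of 0.1, 1145 genes were lower in CAS-E2 against CAS, 0 in SPI against CAS, 726 in SPI-E2 against CAS, 392 in SPI-E2 against SPI and 685 in CAS-E2 against SPI, and the Mt3 interaction was -0.007. With a pseudocount of 5, 406 were higher and 167 lower in CAS-E2 against CAS, 363 and 83 in SPI-E2 against CAS, 419 and 53 in SPI-E2 against SPI and 441 and 80 in CAS-E2 against SPI, with 0 lower in SPI against CAS and 0 higher in SPI-E2 against CAS-E2. The main counts were 821 and 655, 703 and 400, 862 and 191, and 913 and 350. With no filter, 1 was lower in SPI against CAS and 0 higher in SPI-E2 against CAS-E2. With a minimum of 5 FPKM, 404, 259 and 214 were lower in CAS-E2 against CAS, SPI-E2 against CAS and CAS-E2 against SPI, 0 lower in SPI against CAS and 0 higher in SPI-E2 against CAS-E2. Median-ratio scaling, also added for the list counts after seeing the data, gave 1 lower in SPI against CAS, 0 higher in SPI-E2 against CAS-E2, 0.015 for Mt2A in SPI against CAS and -0.23 for the Mt3 interaction. Array weights gave 28 higher and 31 lower in SPI against CAS, 659 lower in SPI-E2 against CAS, 337 lower in SPI-E2 against SPI, 3 higher and 1 lower in SPI-E2 against CAS-E2 and 133 higher and 37 lower in the interaction, with Mt3 at -0.43 and -0.56 in the last 2. With 2 groups alone, 0 were lower in SPI against CAS and 78 in SPI-E2 against SPI. The replicate block gave 0 higher in SPI-E2 against CAS-E2, where 1 was called without it, and changed no other call of the members.

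Without each library in turn, SPI against CAS gave 0 to 2 higher, 0 to 7 lower and -0.30 to 0.32 for Mt3. SPI-E2 against CAS gave 172 to 748 lower, -3.04 to -1.93 for Mt1a, -3.46 to -1.73 for Mt2A and -1.27 to 0.036 for Mt3. SPI-E2 against SPI gave 62 to 456 lower, -2.55 to -1.44 for Mt1a, -3.27 to -1.55 for Mt2A and -1.32 to -0.012 for Mt3. SPI-E2 against CAS-E2 gave 0 to 4 higher, 0 to 1 lower, -0.086 to 1.64 for Mt2A and -0.66 to 0.65 for Mt3. The interaction gave 0 to 84 higher, 0 to 7 lower and -0.71 to 0.60 for Mt3. The most falls in SPI-E2 against CAS and against SPI came without SPI-E2 1 (748 and 456) and the fewest without SPI-E2 3 (172 and 62). Falls in SPI-E2 against SPI also numbered 127 without SPI 1, 112 without SPI 2 and 66 without SPI-E2 2.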
